A study of Mus musculus with 22 samples.

Results

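The comparison of HIE with control mice on P14 rested on 8 animals, 4 in each group, which gave 10 of the 22 libraries in the series. HIE stands for hypoxic-ischemic encephalopathy, a brain injury of newborns. In the mouse model the dam received the bacterial product LPS late in gestation and the pups were exposed to low oxygen in the first postnatal week. By the study's methods, controls came from dams given saline. All animals were CF-1 wildtype mice, an outbred strain, and brain cells carrying CD11b were captured on magnetic beads before RNA extraction. The HIE animals were P4H1-6F, P4H1-1M, P6H12-14F and P6H12-11M, and the controls were P4H4-7F, P4H4-8M, P6H8-8F and P6H8-7M, and values of single animals are given in this order throughout. Each group held 2 females and 2 males by its labels, and Xist and Y-linked genes matched the labels in all 8 animals. P4H1-6F and P6H12-11M had 2 libraries each, which were summed, so that every animal counted once. Animals whose names share their first part (P4H1, P6H12, P4H4 or P6H8) are called a litter here. The labels do not define these names. Within the prefix P4H the treatments were compared between litters P4H1 and P4H4, and within P6H between P6H12 and P6H8. Each treatment within a prefix was therefore 1 litter, and treatment and litter cannot be told apart there. Library names also end in a tag, RNA1 to RNA4, which the labels do not define. Within P4H the HIE libraries were RNA3 or RNA4 and the control libraries RNA2, so tag and treatment cannot be told apart either. Within P6H, P6H12-14F was RNA2, P6H12-11M RNA3 and RNA4, P6H8-8F RNA3 and P6H8-7M RNA1. The collection protocol in the labels is worded for P7, while the time label of these samples is P14.

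CD11b is one chain of an integrin on microglia, the resident macrophages of the brain, and on other myeloid cells. Microglia survey the tissue, clear dying cells and synapses, and respond to bacterial products through Toll-like receptors. Type I interferons are secreted signals that switch on antiviral genes. Beads can also carry along fragments of neurons, myelin or vessels, so a bulk sample may hold RNA of other cells. In such a sample, fewer cells of a type and less RNA per cell cannot be told apart.

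Total counts were 29751486 to 76166750 per animal, and 3 counts equalled 0.0416 to 0.0941 CPM (counts scaled to a common library size after TMM normalization). The cell type label reads monocytes. The 20 microglia markers summed to 24481 to 41677 CPM, against 380 to 735 CPM for 14 markers of monocytes and neutrophils, among them Ccr2 at 12.5 to 27.6 CPM. Of 15 markers of T, NK and B cells, 9 were too low to be tested, including Cd3e, Cd8a and Cd79a. The first principal component of log2 CPM, with 31.79% of the variance, set P4H against P6H, with scores of -61.0 to -5.36 in P4H animals and 6.195 to 63.6 in P6H animals. The second, with 19.14%, set the treatments apart, from -39.5 to -11.1 in HIE animals and from 1.00 to 45.5 in controls.

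In the comparison of all 8 animals, 1 of 20934 genes passed an adjusted p of 0.05 in edgeR's quasi-likelihood test (0.00478% of genes tested). Before adjustment 2066 genes had a p under 0.05, 701 higher and 1365 lower in HIE animals. DESeq2, a second count test on the same genes, called 107 genes higher (0.511%) and 383 lower (1.83%). In 503 genes every HIE animal lay above every control (2.4%), and in 626 genes below (2.99%). Leaving out 1 animal at a time moved the DESeq2 count of 490 to between 152 (without P4H4-8M) and 773 (without P6H8-8F). It was 166 without P4H1-6F, 303 without P6H12-11M, 280 without P4H4-7F and 265 without P6H8-7M.

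The gene called by both tests was Vps37b, a subunit of the ESCRT-I complex that sorts membrane proteins into endosomes for degradation. It was lower in HIE animals. Its level was 53.4, 44.5, 37.7 and 47.2 CPM in P4H1-6F, P4H1-1M, P6H12-14F and P6H12-11M. In the controls P4H4-7F, P4H4-8M, P6H8-8F and P6H8-7M it was 123, 103, 134 and 108 CPM. No HIE animal reached the lowest control. The log2 fold change was -1.36 (SE 0.13, adjusted p = 0.0172 by edgeR's quasi-likelihood test), -1.21 within P4H and -1.51 within P6H. The call rested on the full set of animals: without P4H1-1M, P6H12-11M, P4H4-7F or P6H8-8F the adjusted p was 0.0643, 0.0791, 0.107 and 0.0622.

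Second by p came Abcb9, a lysosomal peptide transporter, which lies on the same strand of the same chromosome. Vps37b spans chr5:124142013-124170429 and Abcb9 chr5:124199593-124233903, both on the minus strand of GRCm39. Abcb9 was at 7.89, 9.60, 6.72 and 7.54 CPM in the HIE animals and at 22.5, 20.1, 19.7 and 16.1 CPM in the controls. The groups did not overlap. The log2 fold change was -1.30 (SE 0.15), with an adjusted p of 0.0596 in edgeR's test and 3.4e-12 in DESeq2, so DESeq2 alone called it. With the prefix as a block edgeR's test gave Abcb9 an adjusted p of 0.0214, and over all alternatives of that test's settings and animals it ranged from 0.00961 to 0.397. Of the other tested genes beside Vps37b, Denr (-0.02), Ogfod2 (0.16), Hip1r (-0.45), Ccdc62 (0.77) and Gm16001 (0.62) were called by neither tool. Among 30 genes of the ESCRT machinery Vps37b alone was called, and the list's median log2 fold change was 0.06. Among 30 lysosomal genes Abcb9 alone was called by DESeq2, and the median was 0.15. The median over all genes tested was 0.01.

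Gdpd3, an enzyme that makes lysophosphatidic acid, had the next smallest p and lies on chromosome 7. It was at 2.86, 2.05, 5.08 and 5.11 CPM in the HIE animals and at 18.8, 12.8, 20.2 and 13.3 CPM in the controls, without overlap. Its log2 fold change was -2.11 (SE 0.30, DESeq2 adjusted p = 2.2e-08).

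These 3 genes also differed between litters of one treatment. The series holds 4 P14 animals labelled Hypoxia, 2 in litter P6H7 and 2 in litter P6H9, a group that the study's text does not describe. Vps37b was at 213 and 172 CPM in litter P6H7 and at 42.1 and 47.6 CPM in litter P6H9. Abcb9 was at 35.9 and 22.8 CPM in P6H7 and at 6.06 and 6.95 CPM in P6H9. Gdpd3 was at 17.7 and 18.8 CPM in P6H7 and at 4.20 and 2.34 CPM in P6H9. For all 3 genes the P6H9 animals lay within or just below the range of the HIE animals and the P6H7 animals within or above that of the controls. The log2 difference between the hypoxia litters was -2.10, -2.16 and -2.45. An absolute difference of at least 1 between these litters was seen in 7.25% of the 20934 genes. Between the control litters the 3 genes differed by 0.10, -0.25 and 0.09 on the log2 scale. With the 4 hypoxia animals in the same fit, which adds their spread to the error, the adjusted p of Vps37b was 0.354. The part of litter in the HIE difference was not tested, since each litter has 1 treatment.

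**Figure D1:**
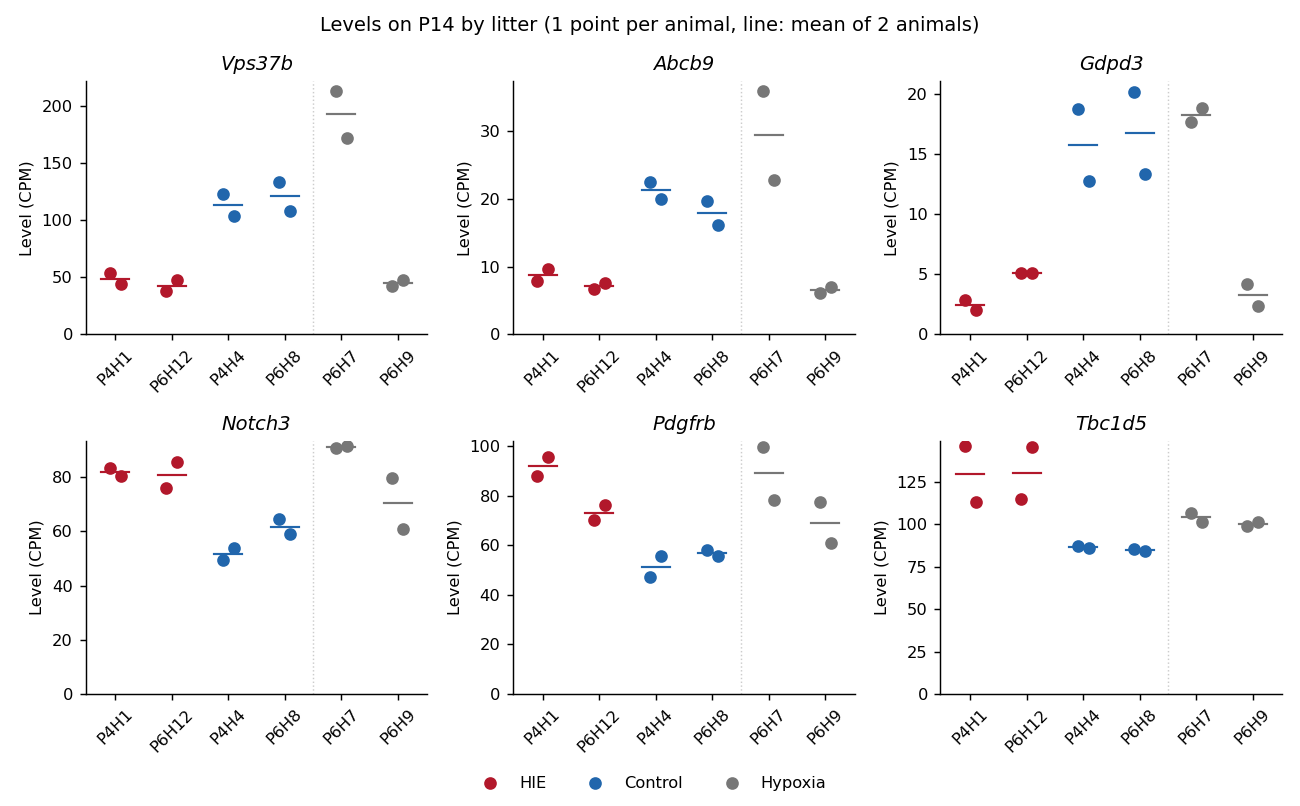
Level in CPM (vertical axis) of 3 genes lower and 3 genes higher in HIE animals on P14, by litter (horizontal axis), with 1 point per animal and a line at the mean of the 2 animals. Vps37b, Abcb9 and Gdpd3 are low in both HIE litters and also in hypoxia litter P6H9, while Tbc1d5 is at 84.0 to 87.1 CPM in the controls and 98.6 to 107 CPM in the hypoxia animals.

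Genes of neurons and synapses were lower in HIE animals. Of 16 neuronal markers, 13 were lower by DESeq2 (against 1.83% of all genes), 8 were lower in every HIE animal than in every control (against 2.99%) and all 16 had a negative log2 fold change in both prefixes. The median was -0.98 in all animals, -0.99 within P4H and -0.77 within P6H. The markers summed to 309, 420, 431 and 405 CPM in the HIE animals and to 642, 814, 505 and 945 CPM in the controls. The groups did not overlap, and P6H8-8F was the control nearest to the HIE animals. None of the 16 passed edgeR's test, where the smallest adjusted p was 0.228.

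Elavl3, an RNA-binding protein of neurons, had the smallest p in the list, at 14.9, 23.0, 31.1 and 21.9 CPM in the HIE animals and 51.5, 55.03, 31.7 and 42.9 CPM in the controls (log2 fold change -0.999, SE 0.23, DESeq2 adjusted p = 0.0058). The HIE animal P6H12-14F lay just below the control P6H8-8F. Grin1, the obligate subunit of NMDA receptors, was at 14.5, 16.4, 15.5 and 18.2 CPM against 24.6, 29.2, 23.4 and 53.3 CPM (-1.01, SE 0.25). Snap25, a SNARE protein of transmitter release, was at 17.1, 20.7, 22.5 and 22.8 CPM in the HIE animals and at 35.4, 49.0, 23.8 and 60.1 CPM in the controls (log2 fold change -1.02, SE 0.25, DESeq2 adjusted p = 0.0091). Slc17a7, the vesicular glutamate transporter of excitatory neurons, was at 21.1, 21.4, 19.7 and 23.5 CPM against 32.7, 47.0, 29.5 and 81.9 CPM (-1.16, SE 0.28, DESeq2 adjusted p = 0.0078). Both inhibitory markers, Gad1 and Gad2, which make GABA, were lower too, by -0.66 and -0.77 on the log2 scale (DESeq2 adjusted p = 0.040 and 0.028). Meg3, a long noncoding RNA abundant in neurons, had a log2 fold change of -0.69 and was not called.

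Of 30 genes of synaptic transmission, which share 5 members with the neuronal markers, 17 were lower by DESeq2 (against 1.83% of all genes), 18 were lower in every HIE animal than in every control (against 2.99%) and all 30 had negative log2 fold changes in both prefixes (median -0.91). Kcnj4, a potassium channel of neurons, was at 1.19, 1.31, 1.08 and 1.24 CPM in the HIE animals and at 3.33, 3.43, 2.51 and 4.05 CPM in the controls (log2 fold change -1.46, SE 0.22, DESeq2 adjusted p = 2.5e-07). Slc24a2, a sodium, calcium and potassium exchanger, was at 8.48, 13.5, 15.8 and 11.7 CPM against 28.9, 34.2, 23.5 and 29.4 CPM (-1.23, SE 0.19). Camk2b, a calcium-dependent kinase of synapses, was at 14.4, 16.3, 14.6 and 17.1 CPM against 27.8, 35.4, 21.9 and 43.8 CPM (-1.04, SE 0.19). All 3 were without overlap. The other genes with the smallest p among the lower ones included Nrxn2 (-0.78), a presynaptic adhesion protein, Vgf (-1.17), a secreted neuropeptide precursor, Ptprn (-1.02), a protein of secretory granules, and Lmtk3 (-0.93), a kinase found in neurons. All 4 were called by DESeq2 without overlap of the groups.

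The counts in these lists depended on single animals. DESeq2 called 1 of 16 neuronal markers without P4H1-6F, 2 without P4H4-8M, 5 without P6H12-11M, and 7 each without P6H12-14F, P4H4-7F or P6H8-7M. It called 15 without P4H1-1M or P6H8-8F. Of the synaptic genes it called 4 without P4H1-6F, 6 without P4H4-8M and 8 without P6H12-11M or P6H8-7M, and 24 without P6H8-8F. The list medians stayed negative in each of these fits, from -1.11 to -0.76 for the neuronal markers and from -1.05 to -0.59 for the synaptic genes, where -0.59 was the value without P6H8-7M. With the prefix as a block, an alternative added after seeing the data, DESeq2 called 16 neuronal and 23 synaptic genes lower, against 2.9% of all genes in that fit.

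Markers of oligodendrocytes, astrocytes and red cells also had negative medians in all animals together, but less alike in the prefixes. The 15 markers of oligodendrocytes and their precursors had a median of -0.70 in all animals, with 1 positive log2 fold change. Their median was -1.52 within P4H and 0.19 within P6H. The myelin gene Mbp was at 205 and 512 CPM in P4H1 and 1311 and 1410 CPM in P4H4, but at 367, 234, 517 and 280 CPM in the P6H animals. Lhfpl3, a gene of oligodendrocyte precursors, was the 1 marker called by DESeq2, at 3.12 to 5.65 CPM in HIE animals and 6.82 to 9.96 CPM in controls. Without P4H4-8M or P4H4-7F no marker of the list was called, and without P6H8-7M 3 were. Of 14 astrocyte markers none was called (median -0.41, with -0.60 within P4H and -0.055 within P6H), and 9 were below 0 in both prefixes. The glutamate transporter Slc1a3 was the single one with a positive log2 fold change (0.87), at 1240 to 1599 CPM in HIE animals and 321 to 1080 CPM in controls. Haemoglobin and other red cell genes, which report on blood left in the tissue, summed to 154 and 404 CPM in P4H1 and to 924 and 1578 CPM in P4H4. In the P6H animals they were at 129 and 266 CPM in P6H12 and at 92.5 and 200 CPM in P6H8. Within P6H the list medians were 0.19 for oligodendrocyte markers, 0.47 for red cell genes and -0.77 for neuronal markers, with 1 litter per treatment. The neuronal markers summed there to 431 and 405 CPM in P6H12 and to 505 and 945 CPM in P6H8. The part of the differences in the other lists in the neuronal result was not tested.

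**Figure D2:**
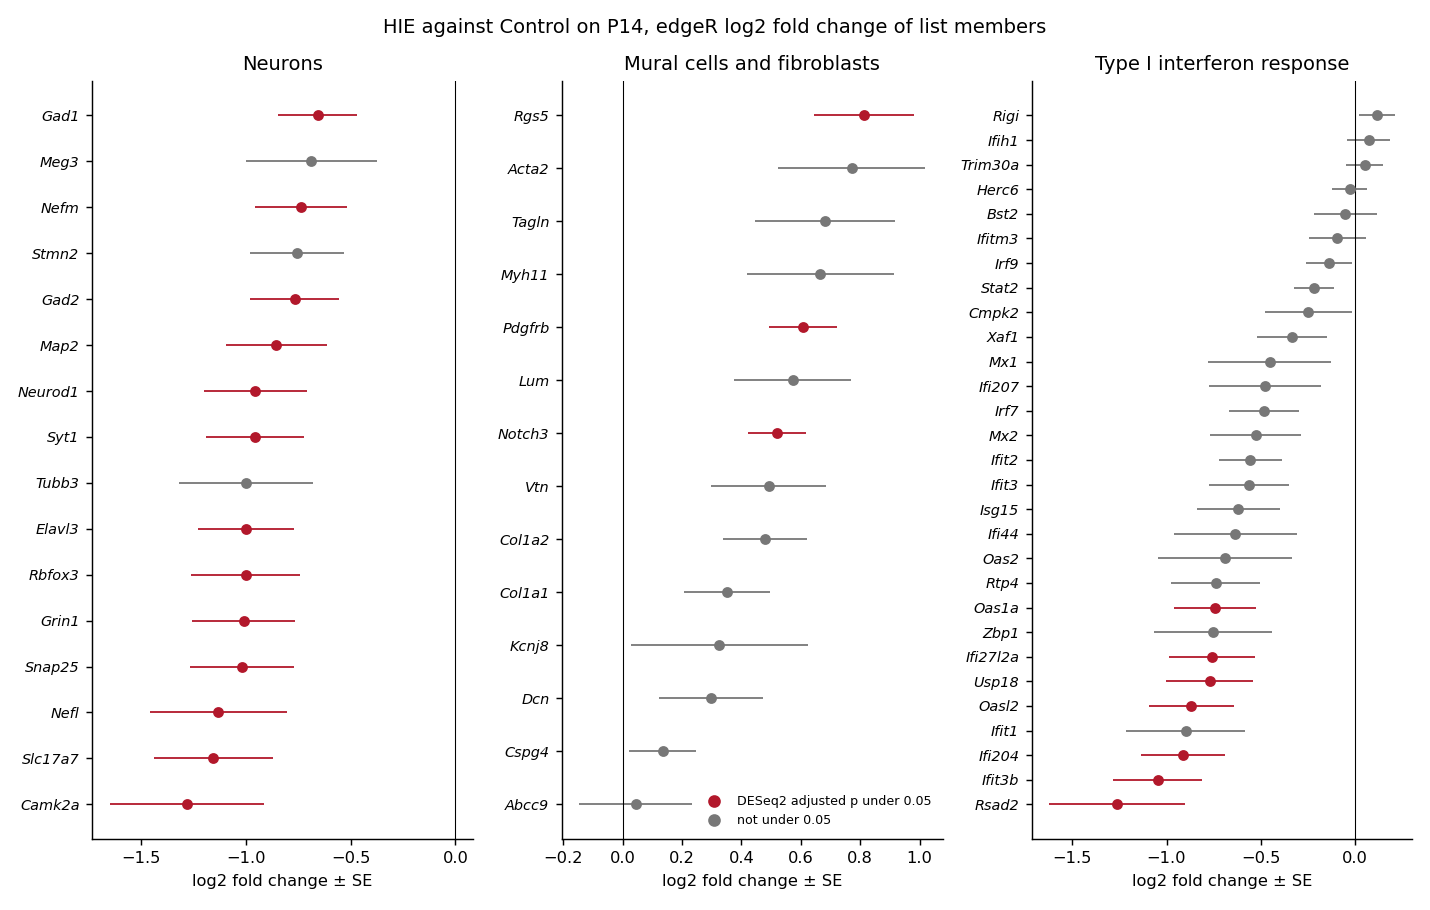
edgeR log2 fold change of HIE over control (horizontal axis, point) with its standard error (bar) for members of 3 lists, with genes under an adjusted p of 0.05 in DESeq2 in red. All 16 neuronal markers lie below 0, all 14 mural and fibroblast markers above 0, and the interferon-response genes mostly on the negative side.

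Several genes of blood vessel walls were higher in HIE animals. Notch3, the Notch receptor of arterial smooth muscle cells and pericytes, was at 83.5, 80.4, 76.2 and 85.5 CPM in the HIE animals and at 49.5, 54.1, 64.5 and 59.0 CPM in the controls. The groups did not overlap, and the log2 fold change was 0.52 (SE 0.10, DESeq2 adjusted p = 0.0011, edgeR adjusted p = 0.222). Jag1, a Notch ligand, was at 48.4, 61.0, 50.5 and 57.9 CPM against 27.3, 36.5, 37.7 and 35.8 CPM (0.67, SE 0.13, DESeq2 adjusted p = 0.0011). Heyl, a transcription factor that Notch3 signalling induces, had a log2 fold change of 0.86 and was called by DESeq2 (named after its values were seen). Notch signalling as a set of genes was not tested.

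Pdgfrb, the PDGF receptor that marks pericytes, was at 88.1, 95.5, 70.2 and 76.1 CPM in the HIE animals and at 47.1, 55.7, 58.0 and 55.5 CPM in the controls (0.61, SE 0.11, DESeq2 adjusted p = 0.0016). Rgs5, a signalling regulator of pericytes, was at 619, 861, 512 and 539 CPM against 314, 401, 379 and 347 CPM (0.81, SE 0.17, DESeq2 adjusted p = 0.0018). Other genes in the 10 higher genes with the smallest p were Gja4 (0.73), a gap junction protein of arterial endothelium, Pear1 (0.62), a receptor of platelets and endothelium, Ltbp4 (0.52), a matrix protein that binds TGF-beta, and Ehd2 (0.78), a protein of caveolae. Each was called by DESeq2 without overlap of the groups and with an edgeR adjusted p of 0.222.

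Over the whole list of 14 mural and fibroblast markers, Notch3, Pdgfrb and Rgs5 were higher by DESeq2 (against 0.511% of all genes) and did not overlap (against 2.4%), and all 14 log2 fold changes were positive (median 0.51, 0.64 within P4H and 0.38 within P6H). The markers summed to 1466, 1895, 1369 and 1412 CPM in the HIE animals and to 839, 1123, 1075 and 972 CPM in the controls. The smooth muscle genes Acta2 (0.77), Myh11 (0.67) and Tagln (0.68) overlapped between the groups and were not called. Kcnj8 (0.33) and Abcc9 (0.05), which form a potassium channel of brain pericytes, were not called either. All 12 endothelial markers had positive log2 fold changes in both prefixes (median 0.45), and none was called by either tool. Of these, Tek, an angiopoietin receptor, was at 75.7 to 119 CPM in HIE animals and 47.0 to 70.8 CPM in controls. The markers of endothelium summed to 961 to 1577 CPM in HIE animals and 648 to 1101 CPM in controls, so those sums overlapped. The DESeq2 count of mural markers was 3 to 5 in the fits that left out 1 animal, with 5 of 14 without P4H4-8M. With the prefix as a block it was 7 for mural and 6 of 12 for endothelial markers, against 1.17% of all genes in that fit. The endothelial median was 0.29 without P4H1-1M.

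The hypoxia animals had Notch3 at 90.6, 91.4, 79.7 and 61.0 CPM and Pdgfrb at 99.6, 78.3, 77.4 and 61.0 CPM. These values lay above the controls' mean of 56.8 CPM for Notch3 and 54.1 CPM for Pdgfrb in every animal, with litter P6H7 above litter P6H9. The hypoxia group would be compared with the same controls, and no test was made.

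Of the remaining higher genes, Tbc1d5, which regulates the retromer complex of endosomes, was at 146, 113, 115 and 146 CPM in the HIE animals and at 87.1, 86.1, 85.2 and 84.0 CPM in the controls (log2 fold change 0.60, SE 0.10, DESeq2 adjusted p = 3.8e-04). The control litters differed little here, by -0.03 on the log2 scale. Zfp97, a zinc finger gene, was at 2.47, 2.48, 2.09 and 5.45 CPM against 0.65, 0.63, 0.72 and 0.25 CPM (2.47, SE 0.42), and the hypoxia litters split for it, at 0.53 and 0.49 CPM in P6H7 and 2.10 and 5.24 CPM in P6H9. Ahcyl, at 0.63 to 14.1 CPM in HIE animals and 0.17 to 0.40 CPM in controls, was at 5.70 to 9.29 CPM in all 4 hypoxia animals. Its symbol marks it as similar to Ahcy, and its count is uncertain where the genes share reads.

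Part of the type I interferon response was lower in HIE animals. Of 30 genes, 7 were lower by DESeq2 (against 1.83% of all genes), 9 did not overlap (against 2.99%), and 23 had negative log2 fold changes in both prefixes. The median was -0.54, with -0.52 within P4H and -0.49 within P6H, and no member passed edgeR's test (smallest adjusted p 0.228). Ifit3b, one of a family of proteins that bind viral RNA, was at 0.996, 1.56, 1.61 and 1.098 CPM in the HIE animals and at 2.40, 2.83, 2.79 and 2.80 CPM in the controls (log2 fold change -1.05, SE 0.24, DESeq2 adjusted p = 0.0021). Ifi204, a sensor of DNA, was at 3.94, 3.10, 3.73 and 5.77 CPM against 6.50, 6.78, 8.41 and 9.58 CPM (-0.91, SE 0.22, DESeq2 adjusted p = 0.0097). Oasl2, a protein related to the oligoadenylate synthetases, was at 4.48, 3.68, 5.496 and 5.67 CPM against 5.82, 8.83, 11.4 and 9.17 CPM (-0.87, SE 0.23). The mean of Ifit3b was 1.49 CPM in hypoxia litter P6H7 and 3.71 CPM in P6H9, without overlap. For Ifi204 and Oasl2 the hypoxia litters overlapped.

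The other members called by DESeq2 were Rsad2 (-1.26), the antiviral enzyme viperin, Oas1a (-0.74), Usp18 (-0.77), which removes ISG15 from proteins and dampens interferon signalling, and Ifi27l2a (-0.76). Isg15 itself, a ubiquitin-like protein, did not overlap (-0.62, 1.52 to 1.79 CPM in HIE animals and 1.85 to 2.95 CPM in controls) and was not called. Stat2, a transcription factor of the pathway, was at 25.1 to 37.5 CPM, with a log2 fold change of -0.22, and was not called. The list summed to 380, 378, 396 and 397 CPM in the HIE animals and to 382, 438, 489 and 433 CPM in the controls. The number called by DESeq2 was 1 without P4H1-6F, 2 without P4H4-8M or P6H8-7M, 3 without P6H8-8F and 4 without P4H1-1M or P6H12-11M. It was 6 without P6H12-14F and 8 without P4H4-7F, and with the prefix as a block it was 13, against 2.9% of all genes. Siglec1, an interferon-inducible lectin of border macrophages in another list, had a log2 fold change of -0.48 and was not called. Markers of border-associated macrophages had a median of -0.05, with none of 12 called.

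Interferons act on these genes through a promoter motif, the interferon-stimulated response element. The letters GAAA, any 2 bases and GAAA again were searched on both strands in the 250 bases before the start of each gene's canonical transcript (GRCm39, GENCODE M39). Matches were found in 14 of the 30 interferon-response genes (46.7%) and in 479 of 15336 tested protein-coding genes (3.1%). Of the 7 members lower by DESeq2, 4 held a match (57.1%, against 46.7% of the whole list). A link of the motif to the HIE difference was not tested. The sequences of these 4 genes are printed 5′ to 3′ on the strand of the gene, with the matches in capitals. A match is a string of letters and not a measured binding site. Ifit3b lies at chr19:34585078-34585327 (plus strand), Ifi204 at chr1:173594611-173594860 (minus strand), Rsad2 at chr12:26506452-26506701 (minus strand) and Usp18 at chr6:121222607-121222856 (plus strand).
Ifit3b: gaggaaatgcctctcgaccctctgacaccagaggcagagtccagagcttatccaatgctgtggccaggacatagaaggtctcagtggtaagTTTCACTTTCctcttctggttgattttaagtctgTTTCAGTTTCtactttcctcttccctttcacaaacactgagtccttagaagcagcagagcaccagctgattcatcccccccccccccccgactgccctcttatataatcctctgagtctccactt
Ifi204: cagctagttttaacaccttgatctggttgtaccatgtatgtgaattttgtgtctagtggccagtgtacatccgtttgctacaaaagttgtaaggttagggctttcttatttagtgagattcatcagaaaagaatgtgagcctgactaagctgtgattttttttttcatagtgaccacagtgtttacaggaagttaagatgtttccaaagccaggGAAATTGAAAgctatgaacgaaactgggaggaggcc
Rsad2: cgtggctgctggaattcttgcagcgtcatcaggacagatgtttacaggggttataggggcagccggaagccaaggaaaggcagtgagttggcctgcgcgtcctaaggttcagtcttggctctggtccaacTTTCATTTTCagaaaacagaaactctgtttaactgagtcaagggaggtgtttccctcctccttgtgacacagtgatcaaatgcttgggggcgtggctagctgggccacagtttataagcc
Usp18: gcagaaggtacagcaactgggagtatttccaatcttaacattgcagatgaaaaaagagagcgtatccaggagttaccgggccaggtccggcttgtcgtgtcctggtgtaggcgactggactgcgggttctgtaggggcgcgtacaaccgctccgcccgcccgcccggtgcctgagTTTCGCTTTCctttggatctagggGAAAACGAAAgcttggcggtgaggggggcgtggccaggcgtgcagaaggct
In Ifit3b the 2 matches began 159 and 125 bases before the transcript start, and in Usp18 they began 75 and 51 bases before it. Rsad2 and Ifi204 held 1 match each, 120 and 36 bases before the start. The capitals read TTTC, 2 bases and TTTC where the element lies on the opposite strand. Oasl2, Oas1a and Ifi27l2a held no match in this window.

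Microglial and inflammatory genes differed less between the groups. All 20 microglia markers had positive log2 fold changes (median 0.23) and none was called by either tool. The median was 0.15 without P6H8-7M, and DESeq2 called 1 member without P6H8-7M, without P6H12-14F or with the prefix as a block. Csf1r, the growth factor receptor on which microglia depend, was at 5457 to 8153 CPM in HIE animals and 5029 to 6194 CPM in controls (log2 fold change 0.26). Olfml3, a secreted glycoprotein of microglia, did not overlap, at 473, 524, 367 and 448 CPM against 308, 324, 195 and 71.8 CPM (1.01, SE 0.37, DESeq2 adjusted p = 0.11). P6H8-7M was the lowest animal for this gene. Slc2a5, a fructose transporter, stood at 185 and 186 CPM in litter P4H1 and at 7.29 to 73.6 CPM in all other animals.

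None of the 30 TNF and NF-kB genes and none of the 20 immediate early genes was called by either tool, with medians of -0.27 and -0.28. The prefixes differed in sign here, with 0.08 within P4H and -0.48 within P6H for the TNF and NF-kB genes, and 0.01 and -0.47 for the immediate early genes. The chemokines Cxcl1 and Cxcl2 had log2 fold changes of -0.77 and -0.64, and Nfkbiz, an inhibitor of NF-kB, one of -0.60. All 3 had values that overlapped between the groups. In the complement list, C4b was lower by DESeq2, at 40.9, 34.6, 33.7 and 33.2 CPM against 50.7, 49.4, 53.9 and 55.2 CPM (log2 fold change -0.56, SE 0.10, DESeq2 adjusted p = 2.0e-04). It was the 1 member called of 19 tested. Tlr1, which pairs with Tlr2 to detect bacterial lipoproteins, was the 1 member called of 22 in the Toll-like receptor list, at 24.7, 24.2, 40.4 and 46.3 CPM against 75.9, 55.4, 50.0 and 56.3 CPM (-0.81, SE 0.23, DESeq2 adjusted p = 0.036). Its log2 fold change was -1.42 within P4H and -0.29 within P6H. No gene was called in the lists of antigen presentation (median 0.09), hypoxia targets and glycolysis (0.05), oxidative phosphorylation (0.04), apoptosis control (0.04) or antioxidant response (-0.06).

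Genes of DNA replication had positive log2 fold changes in all 30 members (median 0.25), of which 23 were positive in both prefixes, and none was called by edgeR or DESeq2. With the prefix as a block DESeq2 called 6 of them higher, against 1.17% of all genes, and without P6H12-11M it called 1. Mcm2, Mcm3 and Mcm5, subunits of the replicative helicase, had log2 fold changes of 0.62, 0.56 and 0.58. Mcm3 was at 49.6 and 39.04 CPM in P4H1 against 28.8 and 27.3 CPM in P4H4, and at 29.6 and 29.1 CPM in P6H12 against 22.6 and 21.4 CPM in P6H8. Genes of mitosis had a median of 0.13, -0.04 within P4H and 0.33 within P6H, and none of 30 was called. In the ribosomal list Rps2 and Rpl3 were higher by DESeq2 (1.43 and 0.56). Rps2 shares sequence with many pseudogene copies, among them Rps2-ps13, and its count is uncertain.

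Neutrophil genes were higher in some HIE animals. The granule and alarmin genes S100a9, Ltf and Ngp had log2 fold changes of 1.08, 1.04 and 1.01 and were not called. S100a9 was at 73.1, 50.5, 134 and 23.0 CPM in the HIE animals and at 27.0, 33.8, 37.7 and 34.2 CPM in the controls. P6H12-14F was the highest animal and P6H12-11M of the same litter lay below every control. Of the 14 monocyte and neutrophil markers, 11 had positive log2 fold changes, and none was called in the full set of animals. Without P6H12-11M DESeq2 called 6 of them higher, against 118 of all 21083 genes in that fit. It called 1 without P4H1-1M, without P6H8-8F or with the prefix as a block (against 1.17% of all genes in the last). The median of the list was 0.81, and 0.39 without P6H12-14F.

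**Figure D3:**
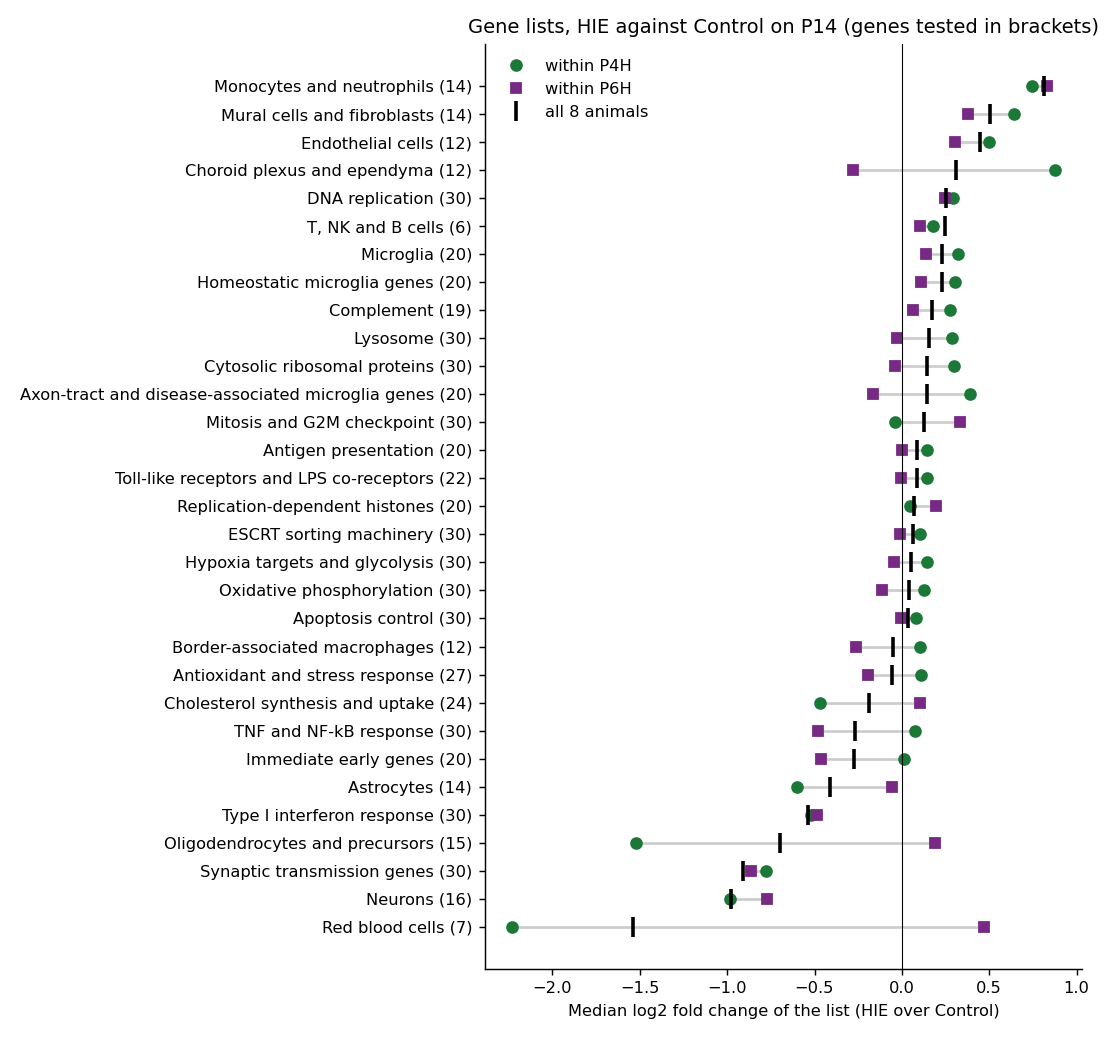
Median log2 fold change of HIE over control (horizontal axis) for 31 gene lists, in all 8 animals (black tick) and within the prefixes P4H (circle) and P6H (square), with the number of genes tested in brackets. The neuronal, synaptic and interferon lists are negative in both prefixes and the mural and endothelial lists positive in both, while red cell and oligodendrocyte lists are negative within P4H and positive within P6H.

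The prefixes share no animal, so each gives its own estimate. Over all genes tested, 57.0% had the same direction within P4H and P6H, and Spearman's rho of the log2 fold changes across genes was 0.222, where genes are not independent. Of 1832 genes lower within P4H at an unadjusted p under 0.05, 72.2% were also below 0 within P6H. Of 769 genes lower within P6H by the same rule, 77.1% were below 0 within P4H. For genes higher within 1 prefix the shares were 64.2% of 1353 and 61.4% of 557.

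**Figure D4:**
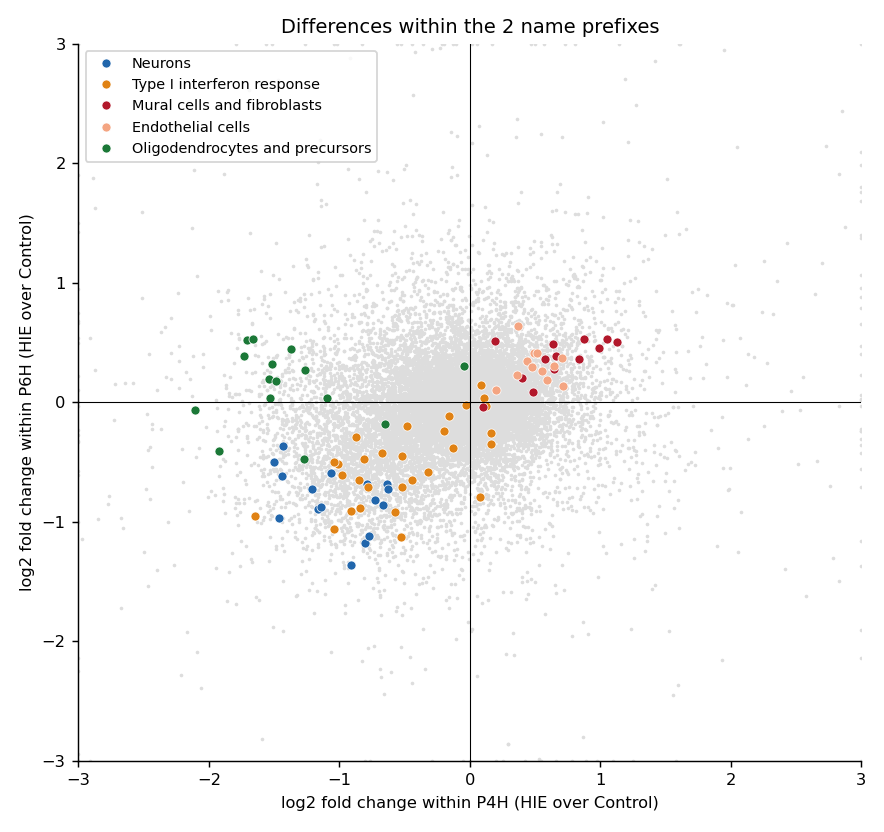
log2 fold change of HIE over control within P4H (horizontal axis) and within P6H (vertical axis) for all 20934 genes (grey, values beyond the axes drawn at the edge) and for 5 lists. Neuronal genes lie at the lower left and mural and endothelial genes mostly at the upper right, while oligodendrocyte genes spread to the left at P6H values near 0.

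Within P4H edgeR's test called 18 genes (0.086%), 9 higher and 9 lower, and within P6H it called 4 (0.0191%), 3 higher and 1 lower. Some of these genes were near absent in 1 or more litters. Gdpd3 and Tlr1, described above, were also called within P4H, with adjusted p of 0.0335 and 0.0413 by edgeR's test. H2-Ea, the alpha chain of an MHC class II molecule that some mouse haplotypes lack, was at 0 in both animals of P4H1, at 10.1 and 14.3 CPM in P4H4, at 20.6 and 20.8 CPM in P6H12 and at 12.6 and 13.2 CPM in P6H8. Set against 3 counts per animal in P4H1, it was at least 147-fold lower there than in either P4H4 animal. In the hypoxia animals it was at 7.55 and 10.4 CPM in P6H7 and at 0 and 7.18 CPM in P6H9.

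Nsa2-ps1, a pseudogene, had the smallest adjusted p within P4H (9.7e-06 by edgeR's test). It was at 0.29 and 0.28 CPM in P4H1 and at 29.2 and 28.4 CPM in P4H4, with 0.44 and 0.20 CPM in hypoxia litter P6H7 and 26.6 and 28.0 CPM in P6H9. Trim30d, a gene of the TRIM family, was at 15.4 and 13.01 CPM in P4H1, at 0.09 to 0.60 CPM in the other HIE and control animals, and at 16.8 and 13.9 CPM in P6H9. Hpgd, the enzyme that inactivates prostaglandins, was at 80.6 and 91.5 CPM in P4H1, at 24.8 to 38.7 CPM in the other HIE and control animals, and at 124 and 122 CPM in P6H7. Ccnt1, a cyclin of the elongation factor P-TEFb, was at 207 and 168 CPM in P4H1, at 76.8 to 96.8 CPM in the rest of the HIE and control animals, and at 270 and 246 CPM in P6H9. For these 4 genes the hypoxia litters P6H7 and P6H9 did not overlap either, though both have 1 treatment. Animals of 1 litter could also differ, as for H2-Ea in P6H9.

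Further genes called within P4H were Csnk2a1-ps3 (24.4 and 50.0 CPM in P4H1 and 2.21 to 3.83 CPM in the other animals of both groups), D17H6S56E-5 (9.991 and 10.7 CPM in P4H1 and 46.1 to 89.5 CPM in those animals) and Rps2-ps13 (131 and 128 CPM in P4H4 and 0 to 0.41 CPM elsewhere in both groups). Syt15, a synaptotagmin, was at 12.95 and 17.3 CPM in P4H1 and 3.51 and 2.72 CPM in P4H4. Within P6H, BC018473 was at 0.0288 and 0.0314 CPM in the P6H8 animals and at 17.0 and 14.7 CPM in P6H12. Rnf26rt was at 0.0288 and 0 CPM in P6H8 and at 2.51 and 2.89 CPM in P6H12. The values in P6H8 are under 3 counts, so no fold is given. The gene with the identifier ENSMUSG00000067017.6, which the annotation does not name, was at 41.3 and 78.3 CPM in P6H8 and at 1.73 to 2.56 CPM in the other 6 animals. Several of these are pseudogenes or near copies, whose counts depend on how shared reads were divided.

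**Figure D5:**
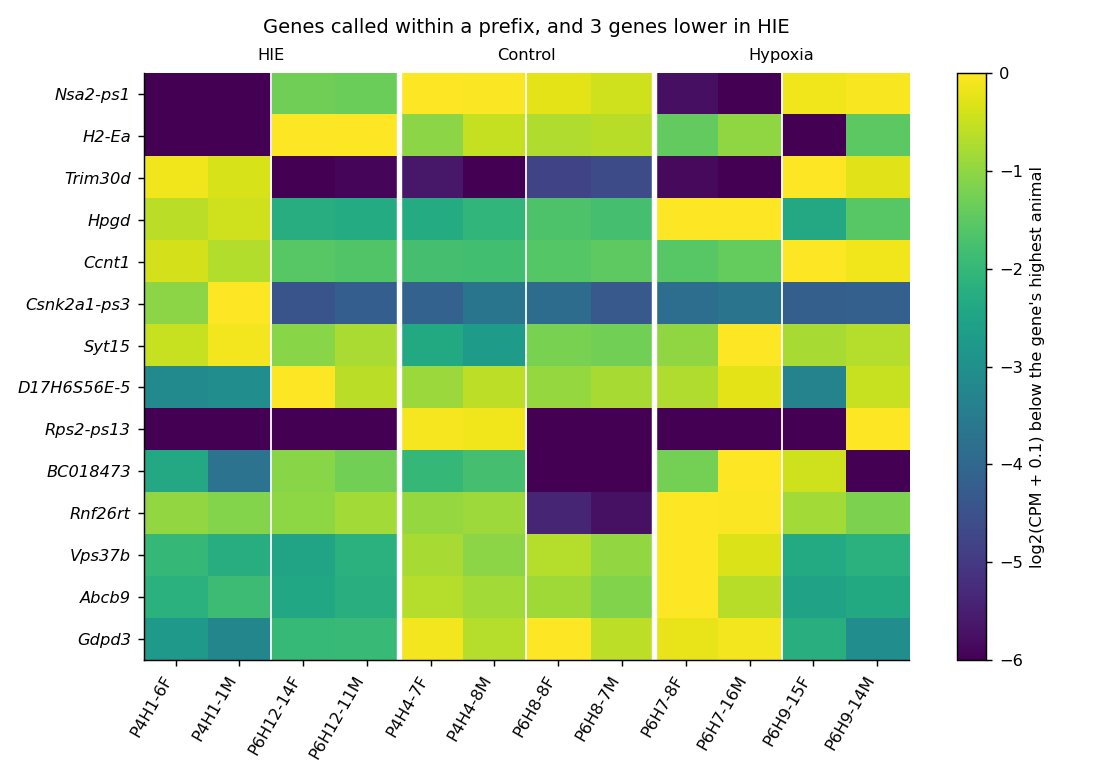
log2(CPM + 0.1) of 14 genes below each gene's highest animal (colour scale, from 0 in yellow to -6 or less in dark purple) in 12 animals on P14 (columns, thin lines between litters and thick lines between groups). The first 11 genes were called within a prefix and differ between the HIE litters or between the control litters. The hypoxia litters overlap for Syt15, D17H6S56E-5, Rps2-ps13 and BC018473 and are apart for the others of these genes. Vps37b, Abcb9 and Gdpd3 are low in both HIE litters and in P6H9.

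Each treatment within a prefix was 1 litter, so treatment and litter cannot be told apart by an interaction term. By such a term in edgeR's test, the difference between HIE and control differed between the prefixes for 11 genes (0.0525%). Among them were Nsa2-ps1 (adjusted p = 1.5e-04), H2-Ea (adjusted p = 9.2e-04), Trim30d (adjusted p = 0.0044) and Hpgd (adjusted p = 0.0066). For Vps37b and Abcb9 the adjusted p of the interaction was 0.843 and 0.981. The interaction of the sex label with treatment gave 0 calls in edgeR's test, with 202 genes at an unadjusted p under 0.05, and 0 calls in DESeq2. Without the filter on low counts edgeR's test called 102 genes of 36226. Each combination of sex and treatment held 2 animals, 1 of each prefix.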

How the data were processed

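Bulk RNA sequencing of bead-captured CD11b+ brain cells was analysed for 4 HIE and 4 control animals on P14. The authors prepared stranded total RNA libraries after removal of ribosomal RNA, and the submitters' processing notes name FastQC, STAR, RSEM and GRCm39. The deposited values are expected counts per gene, which RSEM estimates by dividing reads that match several genes. They were rounded to whole numbers, and the counts of 2 libraries of one animal were summed. Of 56691 genes listed, 56017 matched GENCODE M39 and took their names and positions from it.

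Groups came from the treatment and time labels. Littermates were counted as independent animals, though nothing says that they are. P-values of the main test measure the spread between animals of one treatment. Those within the prefixes and of the prefix interaction measure the spread between littermates only and not that between litters. Differences were tested with edgeR (version 4.0.16, R version 4.3.3) by quasi-likelihood, after TMM scaling and filterByExpr, and p-values were adjusted by Benjamini-Hochberg with a threshold of 0.05. DESeq2 1.42.0 was run on the same 20934 genes and gave no adjusted p for 2847 of them. Contrasts within the prefixes and the prefix interaction came from a fit of prefix by treatment. The sex interaction came from a fit of sex by treatment, without the prefix. Levels are CPM after TMM, and log2 values used a prior count of 2. Levels of hypoxia animals were scaled with all 12 P14 animals. The tests were checked on simulated counts, drawn for each animal without litter differences. That check therefore does not cover littermates counted as independent animals.

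Named genes were the 10 with the smallest p in each direction (leaving out Gm and Rik symbols), in each list the 3 with the smallest p and the 2 with the highest level, the 5 with the smallest p in each direction within a prefix or interaction that had calls, and the neighbours of the called gene. Heyl, further members of the lists and further called genes were named after their values were seen. Lists were described by counts and medians, without a test. The members, lists and comparisons were chosen with earlier results of these data known. Counting error alone enters the depth limit of 3 counts. Alternatives covered scaling, filters, tests, covariates, single libraries and leaving out each animal. Libraries from P7 were not analysed here, and single genes of some lists are not reported here.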

Additional observations from a re-analysis of the deposited data

Results flagged for a closer look

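Of 128 groups of 4 animals examined for a value far from the others (the gap to the nearest animal over the range, against Dixon's 95% critical value), 3 passed, and chance flags about 1 in 20. P4H4-7F was the lowest control for Jag1 (0.839 of the range), P4H1-6F the lowest HIE animal for Ptprn (0.912) and P6H8-7M the lowest control for Zfp97 (0.869), all on log2 CPM.

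The HIE effect, within each prefix a difference between litters, differed between the prefixes for 11 genes by the interaction test of edgeR. Given as the effect within P6H minus that within P4H on the log2 scale, the difference was 12.78 for H2-Ea, 9.93 for BC018473, 9.03 for Gm3226, 8.08 for Gm14150, 7.38 for Rnf26rt, 5.64 for Nsa2-ps1 and 2.95 for D17H6S56E-5. It was -8.17 for Trim30d, -5.03 for ENSMUSG00000067017.6, -2.26 for Gm42427 and -2.21 for Hpgd. Genes at or near 0 in 1 litter have no bounded fold, and these sizes depend on the fit. Gm3226 was at 1.14 and 0.78 CPM in P4H1, 18.6 and 18.6 CPM in P4H4, 33.8 and 14.7 CPM in P6H12 and 0.66 and 1.099 CPM in P6H8. In every one of the 11 genes each treatment within a prefix was 1 litter, so litter and treatment cannot be told apart.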

How the results depend on the processing

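In place of 1 gene, all animals together gave 2 with scaling by library size only, 2 at a mean CPM of at least 1, 2 with the prefix as a block, 3 without a filter on low counts, 231 by edgeR's exact test, 237 by its likelihood ratio test, 490 by DESeq2 and 0 (2017 at an unadjusted p under 0.05) with all 12 P14 animals in the fit. The main test called 0 to 6 genes when 1 animal was left out, with 1811 to 2255 genes at an unadjusted p under 0.05 in the fits that called 0. The adjusted p of Vps37b was 6.4e-17 to 0.354 over all alternatives. Without a filter the counts were 1812 within P4H, 763 within P6H, 659 for the prefix interaction and 102 for the sex interaction, and by DESeq2 they were 793, 112 and 137 for the first 3. Leaving out 1 animal gave 5 to 15 calls within P4H, 1 to 13 within P6H and 9 to 16 for the interaction. There, arms with 1 animal left were assumed to vary like the others. The interaction of sex gave 0 in each such fit. Genes without overlap numbered 661 to 1131 above and 769 to 1398 below with 1 animal left out. DESeq2's count of 490 became 852 with the prefix as a block, and 152 to 773 without 1 animal, both added after seeing the data. Medians were followed through the alternatives for 9 lists only, and these kept their sign in every alternative run. They were the neuronal, synaptic, mural, endothelial, interferon, microglia, DNA replication, oligodendrocyte, and monocyte and neutrophil lists. Fits within a prefix were not among these alternatives. There the oligodendrocyte median was -1.52 within P4H and 0.19 within P6H. No paired analysis was possible because the labels carry no replicate numbers that pair single animals of the groups. The prefix block matches litters by name only.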
